A study of Homo sapiens with 6 samples.

Results

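Genes of the NRF2 antioxidant response were examined in A2780, an established line of human ovarian cancer cells, with and without a hairpin that targets USP39, which encodes a spliceosome protein. The group was given as a list of 9 gene symbols, and its members were the rows of the deposited count table whose gene name equals 1 of them. Of the 9 genes, 8 had rows (11 transcript rows among 21368), out of 16571 gene symbols in the table. NFE2L2, which encodes NRF2 itself, had no row and is not analysed here. Both groups were infected with lentivirus. The control group, pGIPZ-NC, carried the control form of the pGIPZ hairpin vector, and the other group, shUSP39, carried a hairpin that targets USP39. There were 3 libraries in each group. The study's methods describe stable lines selected with puromycin and hairpins cloned into pGIPZ. The labels do not say which hairpin a shUSP39 library carried, nor whether the libraries came from separate infections. The study's figure legends call the 3 RNA-seq samples biologically independent, without saying how they were made so. The p-values measure the spread between these libraries, which may be technical. Loss of USP39 and other effects of a hairpin cannot be told apart in this design. USP39 was not analysed here, so the labels were not checked against the targeted gene.

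NRF2 is a transcription factor that is held at a low level in unstressed cells by KEAP1, an adaptor that brings it to the CUL3 ubiquitin ligase for destruction. Oxidants and electrophiles modify cysteines of KEAP1, NRF2 then accumulates, pairs with a small MAF protein and binds antioxidant response elements near its target genes. The classical targets make glutathione (GCLC and GCLM), run the thioredoxin system (TXN, TXNRD1 and SRXN1), reduce quinones (NQO1) and degrade heme (HMOX1). HMOX1 is also known to be held down by the repressor BACH1 and induced by several other stress factors.

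Total counts per library ranged from 28294819 to 32939264. Levels are given in CPM, counts relative to the scaled library size. The number of genes with at least 1 count was 12662 to 12819 in the pGIPZ-NC libraries and shUSP39 replicate 1, but 15446 in shUSP39 replicate 2 and 14890 in shUSP39 replicate 3. The members are therefore also given without these 2 shUSP39 libraries, which leaves 1 library in that group, and so are the other named genes whose call is then lost. MUC16 was at 4.90 and 2.40 CPM in them and at most 0.187 CPM in the other libraries. As markers of the labelled ovarian epithelial cancer line, KRT18 and KRT19 were detected, whereas EPCAM, CDH1 and PAX8 were near 0, at most 0.203 CPM in a library. The summed level of the 7 such markers with rows was 46.8 to 49.3 CPM in pGIPZ-NC against 34.0 to 40.8 CPM in shUSP39, and 2 to 4 of them had at most 3 counts in a library. The tested members of this list moved in opposite directions. KRT19 went from 24.4 to 1.96 CPM and KRT8 from 0.979 to 0.0312 CPM, whereas KRT18 went from 22.4 to 32.9 CPM (means, each with an adjusted p under 0.05). Of 8 markers of immune, endothelial and fibroblast cells, the summed level was 1139 to 1202 CPM in pGIPZ-NC against 465 to 486 CPM in shUSP39. Nearly all of it was COL1A2. PTPRC, CD3E and PECAM1 were at most 0.229 CPM in any library. The others were detected, with CD68 at 9.08 to 11.9 CPM and COL1A1 at 5.84 to 8.68 CPM. VWF was low, at most 1.31 CPM in a library, and mean DCN went from 1.13 CPM in pGIPZ-NC to 0.0785 CPM in shUSP39. The part of these marker shifts in the results below was not tested. In bulk RNA, fewer cells of a type and less RNA per cell cannot be told apart.

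The NRF2 targets did not move as 1 block. HMOX1, GCLC, GCLM, TXN and SRXN1 were higher in shUSP39, NQO1 was lower, and KEAP1 and TXNRD1 did not pass the test. The rise was 1.41-fold in HMOX1, 1.31-fold in GCLC, 1.28-fold in GCLM, 1.16-fold in TXN and 1.08-fold in SRXN1 (ratios of mean levels, n = 3 libraries per group). NQO1, a quinone reductase widely used as a reporter of NRF2 activity, was at 0.839 of its pGIPZ-NC level. The low-count filter kept all 8 genes. In the quasi-likelihood test of edgeR, 6 of them had a Benjamini-Hochberg adjusted p under 0.05, 5 higher and 1 lower. In the same fit 33.6% of the 10695 tested genes passed, 16.1% higher and 17.5% lower, so a change of this kind was common among all genes. Under upper-quartile scaling the genes that passed were 58.0% higher ones, against 48.0% here, and the 8 genes kept their directions. The median log2 fold change was 0.29 over the 8 genes and 0.01 over all tested genes. None of the 8 passed with a change beyond 2-fold as well (6.81% of all tested genes did). With an unadjusted p under 0.05 and 2-fold the count was also 0 in edgeR and in the DESeq2 Wald test, and 1 in limma-voom.

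**Figure D1:**
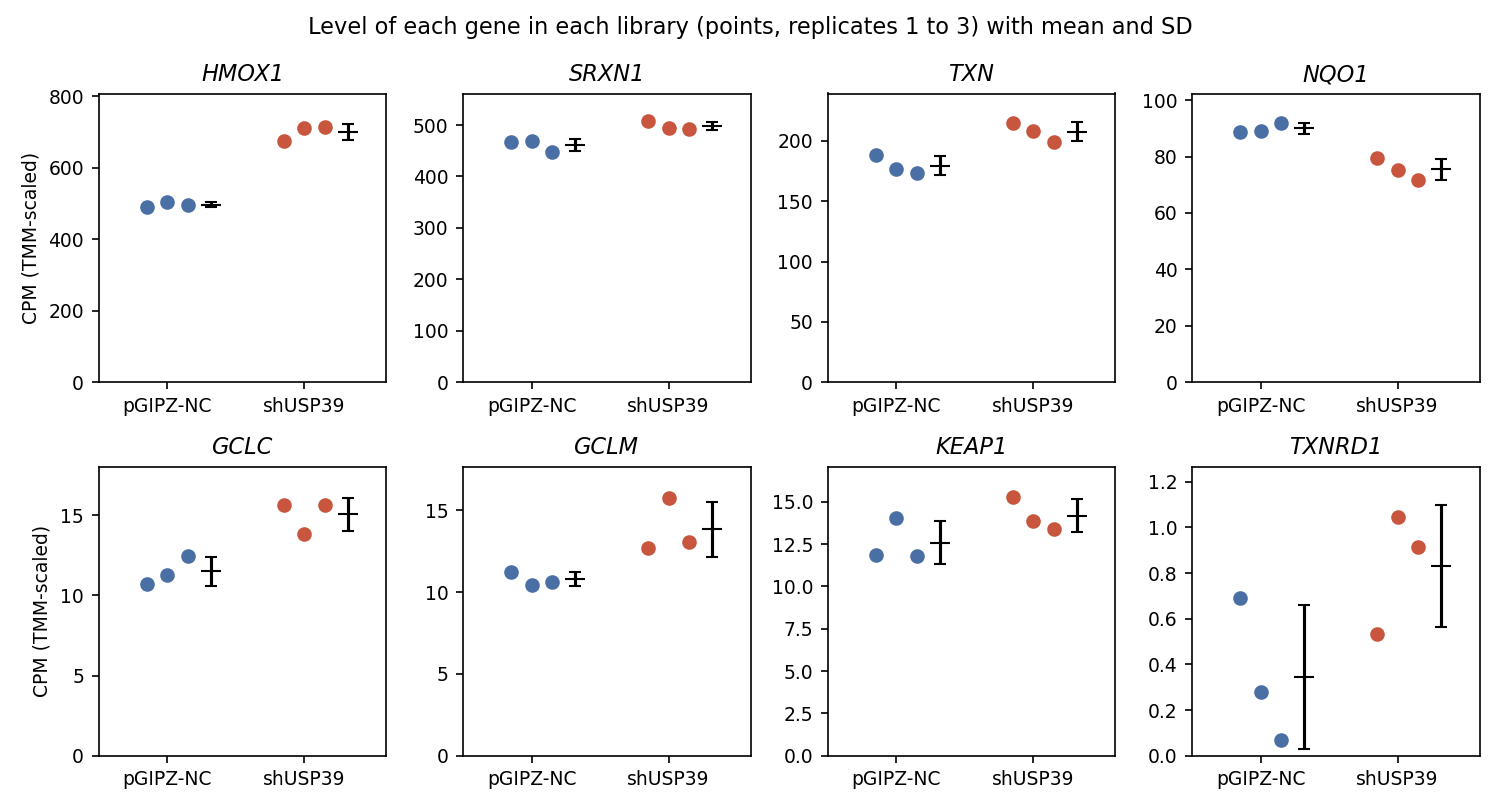
Level of each of the 8 genes in each library, in CPM after TMM scaling (y axis from 0). Points are replicates 1 to 3 from left to right, blue for pGIPZ-NC and red for shUSP39, and black marks give the mean and SD of 3 libraries. The groups do not overlap in HMOX1, SRXN1, TXN, NQO1, GCLC and GCLM, and overlap in KEAP1 and TXNRD1.

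Levels below are CPM scaled with TMM factors, which correct for differences in library composition. Between genes they were compared per length, as CPM per kilobase of the canonical transcript. In pGIPZ-NC, HMOX1 was the highest at 319.6 ± 4.34 CPM per kilobase, followed by TXN at 243 ± 11.0 and SRXN1 at 182 ± 4.42 (SD, n = 3 each). NQO1 stood at 35.7 ± 0.717 CPM per kilobase, and KEAP1, GCLC and GCLM lay between 2.21 and 4.90 (means, n = 3). TXNRD1 was the lowest, at 0.0896 ± 0.0817 CPM per kilobase. In this order no gene overlapped the next in either group, and the order was the same in shUSP39. The canonical length may differ from that of the transcripts that were counted. Only 2 of 7 RefSeq transcripts of TXNRD1 had rows, 2 of 4 of NQO1, and 1 of 2 each of GCLC, GCLM and TXN. Their levels may be too low, so the order may not be that of the whole genes. HMOX1 and SRXN1 had a higher mean CPM than 97.4% and 96.3% of tested genes, while GCLC, GCLM and KEAP1 lay near the middle of all tested genes (51.4% to 52.6% below them). The summed level of the 8 genes was 1245 to 1273 CPM in pGIPZ-NC against 1520.2 to 1534 CPM in shUSP39, most of it HMOX1 and SRXN1.

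**Figure D2:**
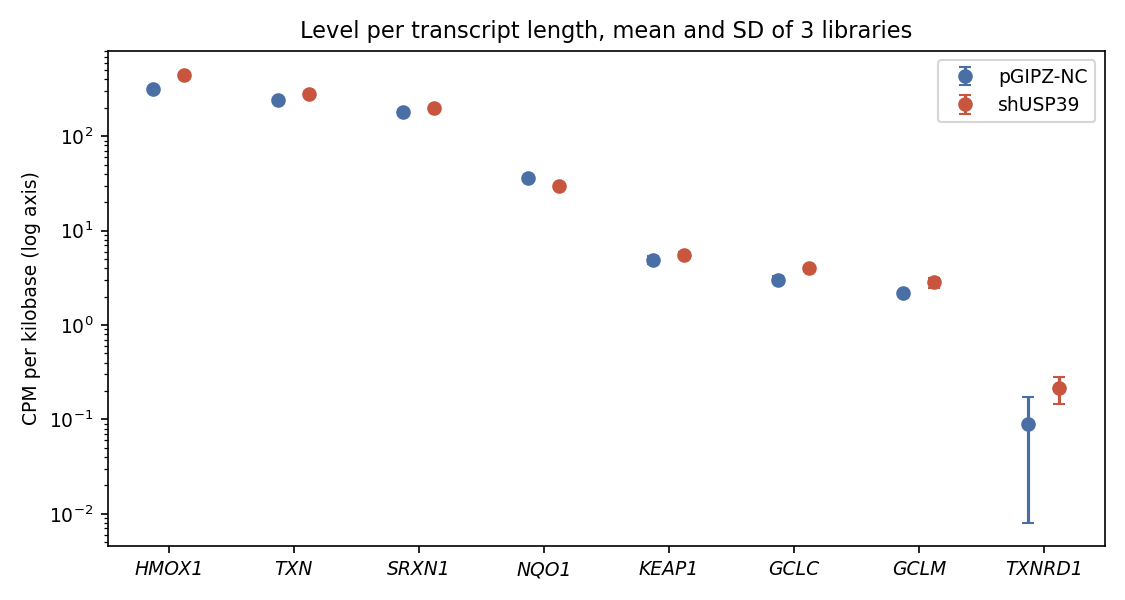
Level of the 8 genes per kilobase of transcript, on a log axis, as the mean and SD of 3 libraries in pGIPZ-NC (blue) and shUSP39 (red). HMOX1, TXN and SRXN1 stand above 100 CPM per kilobase, and TXNRD1 lies below 1, with rows for only 2 of its 7 RefSeq transcripts.

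KEAP1, the sensor and adaptor that holds NRF2 down, lies on chromosome 19 (10596801 to 10614234, minus strand, GRCh37). Its level was 11.9, 14.0 and 11.8 CPM in pGIPZ-NC replicates 1, 2 and 3 and 15.3, 13.9 and 13.4 CPM in shUSP39 replicates 1, 2 and 3. The groups overlapped, since pGIPZ-NC replicate 2 lay above 2 of the shUSP39 libraries. The log2 fold change was 0.17 (95% interval -0.064 to 0.41, adjusted p 0.270), which leaves room for a fold between 0.957 and 1.33. Without shUSP39 replicates 2 and 3 it was 0.28 (adjusted p 0.253). Both KEAP1 transcripts of RefSeq were in the table and took similar shares of the counts. NM_012289.3 held 50.1% ± 5.20 of KEAP1 counts in pGIPZ-NC and 52.7% ± 6.05 in shUSP39, and NM_203500.1 held the rest (SD, n = 3 each). Neither transcript passed the test (log2 fold changes 0.27 and 0.08, adjusted p 0.234 and 0.765).

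GCLC and GCLM encode the catalytic and the modifier subunit of glutamate-cysteine ligase, the enzyme of the rate-limiting step of glutathione synthesis. GCLC (chromosome 6, 53362139 to 53481768, minus strand, GRCh37) had 10.7, 11.3 and 12.5 CPM in the pGIPZ-NC libraries and 15.7, 13.9 and 15.7 CPM in the shUSP39 libraries. The lowest shUSP39 library exceeded the highest of pGIPZ-NC. On the log2 scale the rise was 0.39 (SE 0.11, adjusted p 0.00883). GCLM (chromosome 1, 94350755 to 94375012, minus strand) had 11.3, 10.5 and 10.6 CPM in pGIPZ-NC against 12.7, 15.8 and 13.1 CPM in shUSP39. The groups were again apart, and shUSP39 replicate 2 was the highest library. On the log2 scale the rise was 0.36 (SE 0.12, adjusted p 0.0215). The GCLM call rested on single libraries. The adjusted p was 0.0760 without pGIPZ-NC replicate 2, 0.0629 without pGIPZ-NC replicate 3 and 0.166 without shUSP39 replicate 2, where the log2 fold change was 0.26. Without shUSP39 replicates 2 and 3 it was 0.23 (adjusted p 0.393) in GCLM and 0.45 (adjusted p 0.0506) in GCLC.

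The ratio of the GCLC and GCLM RNAs was read from counts, without a correction for transcript length. It compares libraries and does not give the amounts of the subunits. Per kilobase, the mean CPM in pGIPZ-NC was 3.03 for GCLC and 2.21 for GCLM. There were 0.9499, 1.08 and 1.17 GCLC counts per GCLM count in the pGIPZ-NC libraries and 1.23, 0.878 and 1.20 in the shUSP39 libraries. These ranges overlapped. The table holds 1 of 2 RefSeq transcripts of each gene, so these values describe NM_001498.3 and NM_002061.3.

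In the thioredoxin system, TXN encodes thioredoxin, the small protein that passes electrons to oxidized proteins and peroxiredoxins. TXN (chromosome 9, 113006090 to 113018787, minus strand) had 189, 176 and 173 CPM in pGIPZ-NC against 215, 208 and 199 CPM in shUSP39. Only 1 of its 2 RefSeq transcripts had a row, so these values describe NM_003329.3. The groups did not overlap, and the log2 fold change was 0.21 (SE 0.04, adjusted p 0.000485). TXN passed with any 1 library left out and also without shUSP39 replicates 2 and 3 (adjusted p 0.00225). SRXN1 encodes sulfiredoxin, which repairs peroxiredoxins whose cysteine has been overoxidized. It lies on chromosome 20 (627259 to 633844, minus strand) and had 467, 468 and 448 CPM in pGIPZ-NC against 507, 494 and 493 CPM in shUSP39. Although the groups were apart, the change was small, at 0.11 on the log2 scale (SE 0.03, adjusted p 0.0123). It did not pass without pGIPZ-NC replicate 3 (adjusted p 0.0981), without shUSP39 replicate 1 (0.0575) or without shUSP39 replicates 2 and 3 (0.0503).

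TXNRD1 encodes the cytosolic thioredoxin reductase, a selenoprotein that recharges thioredoxin with electrons from NADPH. It lies on chromosome 12 (104609557 to 104744085, plus strand). Only 2 of its 7 RefSeq transcripts are in the table, and they held 22, 9 and 2 counts in pGIPZ-NC and 17, 32 and 27 counts in shUSP39. NM_001261445.1 held 98.2% of these counts. The levels were 0.690, 0.277 and 0.0708 CPM in pGIPZ-NC against 0.531, 1.05 and 0.913 CPM in shUSP39, and the groups overlapped. The log2 fold change of 1.23 had a 95% interval from -0.0033 to 2.46 (adjusted p 0.122). Without pGIPZ-NC replicate 1 it was 2.19 (adjusted p 0.0279), without pGIPZ-NC replicate 3 it was 0.77 and without shUSP39 replicates 2 and 3 it was 0.60 (adjusted p 0.755). These values do not describe the gene's total output, since its other transcripts are not analysed here.

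NQO1 encodes the quinone reductase that turns quinones into hydroquinones in a single step with NAD(P)H. The gene (chromosome 16, 69740899 to 69760571, minus strand) had 88.8, 89.0 and 92.1 CPM in pGIPZ-NC against 79.4, 75.1 and 71.9 CPM in shUSP39. Each shUSP39 library lay below each pGIPZ-NC library. The log2 fold change of NQO1 was -0.25 (SE 0.06, adjusted p 0.000770), opposite to the other members that passed. The fall was between 0.22 and 0.30 on the log2 scale when any 1 library was left out, and it passed in each of these fits. Without shUSP39 replicates 2 and 3 the log2 fold change was -0.18 (adjusted p 0.119). NM_000903.2 held 99.4% of NQO1 counts. The minor NM_001286137.1 had 9 to 20 counts per library and an adjusted p of 0.994, so a change in it was not detectable at this depth. The table holds 2 of 4 RefSeq transcripts of NQO1.

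HMOX1 encodes heme oxygenase 1, the inducible enzyme that opens the heme ring to biliverdin, carbon monoxide and free iron. It lies on chromosome 22 (35776354 to 35790207, plus strand), and its only RefSeq transcript, NM_002133.2 in the table, was measured. Its level was 490.2, 504 and 496 CPM in pGIPZ-NC replicates 1, 2 and 3. In shUSP39 it was 675, 712 and 715 CPM in the same order. The lowest shUSP39 library thus stood well above the highest pGIPZ-NC library. The log2 fold change of HMOX1 was 0.50 (SE 0.03, adjusted p 4.51e-12). It lay between 0.48 and 0.52 with any 1 library left out and was 0.44 (adjusted p 5.99e-09) without shUSP39 replicates 2 and 3. Even so, 23.0% of all tested genes had a larger absolute log2 fold change. Within a library, HMOX1 CPM per NQO1 CPM was 5.39 to 5.66 in pGIPZ-NC and 8.49 to 9.95 in shUSP39. That these ratios do not overlap follows from the levels of the 2 genes and is no separate evidence.

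**Figure D3:**
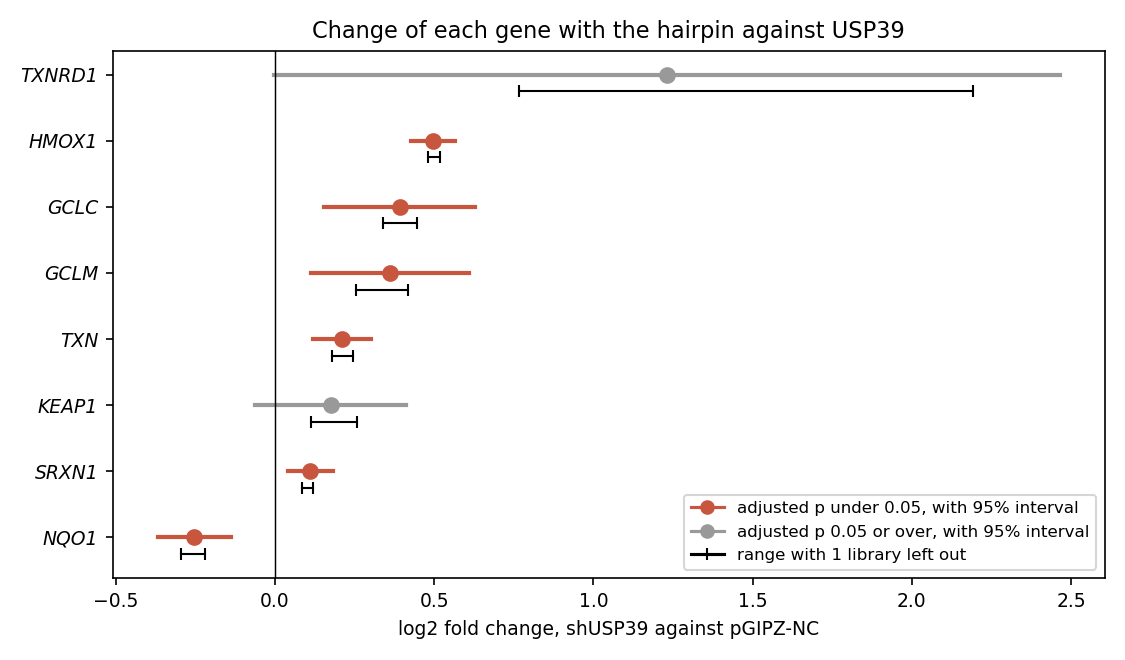
Log2 fold change of shUSP39 against pGIPZ-NC for the 8 genes, from edgeR's quasi-likelihood fit, with 95% intervals (thick lines) and the range over the 6 fits that each left out 1 library (thin black lines). Red marks an adjusted p under 0.05. HMOX1 has the narrowest interval relative to its change, NQO1 alone lies below 0, and TXNRD1 spans the widest range.

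Transcript rows were also tested as deposited. Of the members' rows, 6 passed an adjusted p of 0.05 (29.3% of 12553 tested transcripts did), 1 in each of the 6 genes that passed as sums. HMOX1, GCLC, GCLM, TXN and SRXN1 had 1 row each, so their rows hold the same counts as their sums. In NQO1 the row that passed held 99.4% of the counts. Agreement with the sums was thus built in and is no separate evidence. Transcript proportions could be tested in KEAP1 and NQO1 only, and 0 of 2 passed edgeR's test of differential transcript usage (adjusted p 0.761 and 0.871, with 0 at an unadjusted p under 0.05). Over all 1628 genes tested in this way, 3.69% passed. Groups that did not overlap were common over all genes as well, at 44.2% of tested genes, against 6 of the 8 members.

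To show where the letters of the antioxidant response element occur near these genes, promoter windows of RefSeq (GRCh38.p14) from 250 bases before to 50 bases after a gene start were searched on both strands for TGACNNNGC. HMOX1 had no window in the table. Of 8 listed genes with a window (NFE2L2 included), 3 held a match, in 4 of 11 windows. Of all 35116 windows of this length, 13.3% held one. The matches were in GCLM, KEAP1 and TXNRD1. They are shown 5′ to 3′ on the strand that spells the motif, with the motif in capitals, and with positions from an exact match of the window to GRCh37. This motif overlaps that of AP-1, TGACTCA, where its free letters allow it, but none of the 6 matches spelled it.
GCLM, chr1:94375002-94375030, plus strand: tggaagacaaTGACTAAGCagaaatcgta
KEAP1, chr19:10613460-10613488, plus strand: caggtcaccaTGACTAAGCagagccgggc
KEAP1, chr19:10613483-10613511, minus strand: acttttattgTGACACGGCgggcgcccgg
TXNRD1, chr12:104609448-104609476, plus strand: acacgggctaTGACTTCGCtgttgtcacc
TXNRD1, chr12:104609539-104609567, minus strand: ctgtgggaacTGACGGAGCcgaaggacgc
TXNRD1, chr12:104680698-104680726, minus strand: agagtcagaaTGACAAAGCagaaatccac

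The GCLM match lay 25 bases before the RefSeq gene start, and the closer KEAP1 match, with the same 9 letters, lay 22 bases before its start. GCLM rose and KEAP1 did not pass the test. No match fell in the windows of GCLC, TXN, SRXN1 and NQO1, which says only that these letters are not in those windows. A match of letters is a description and was not tested as a binding site.

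The other genes of the pathway were taken from 7 lists with 107 genes, of which 95 had rows and 81 were tested. Of these 81, 25 were higher and 14 lower at an adjusted p under 0.05 in edgeR's quasi-likelihood test, or 48.1% in all, and the median log2 fold change was 0.04. Over all tested genes 33.6% passed, 16.1% higher and 17.5% lower. The share that passed was between 33.3% (NADPH supply) and 60.0% (superoxide and peroxide removal, 5 genes) in the 7 lists. Beyond 2-fold, 7 of the 81 genes were higher and 0 lower by edgeR at this adjusted p, against 484 higher and 244 lower of all 10695 tested genes (6.81%). Without shUSP39 replicates 2 and 3, 27 genes of the 7 lists passed, against 39 with all libraries. Of the genes named below, MAFG (log2 fold change 0.26, adjusted p 0.561), SQSTM1 (0.047, 0.673), GLRX (0.87, 0.181), TKT (0.27, 0.124), SLC40A1 (0.35, 0.467), BLVRB (0.16, 0.0791) and ABCB6 (-0.17, 0.162) then did not pass. CCS still passed, at a log2 fold change of -0.48 against -0.31 with all libraries.

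**Figure D4:**
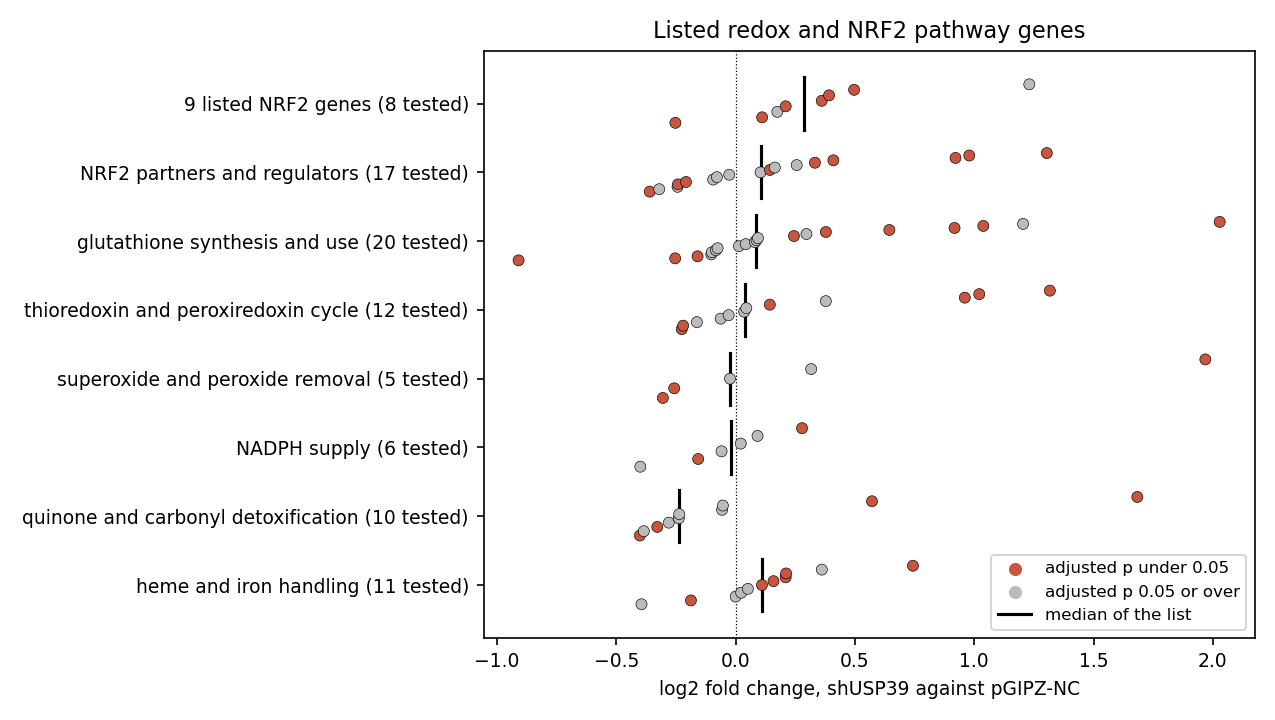
Log2 fold change of shUSP39 against pGIPZ-NC for each tested gene of the 9 listed NRF2 genes and of the 7 other lists. Each point is a gene, red where its adjusted p was under 0.05 and grey otherwise, and the black bar is the list's median. Points that passed lie on both sides of 0 in every list.

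Among partners and regulators of NRF2, 6 of 17 tested genes were higher and 3 lower (median log2 fold change 0.10). NFE2L3, a relative of NRF2 in the same bZIP family, rose from 22.1 ± 2.29 to 54.5 ± 2.64 CPM (SD, n = 3 in each group), or by 1.30 on the log2 scale. SESN2, a stress-induced sestrin, rose from 45.9 ± 1.90 to 90.5 ± 1.16 CPM. Of the small MAF proteins with which NRF2 pairs, MAFK rose 1.33-fold, to 143 ± 7.57 CPM. MAFF, at 2 to 12 counts per library, did not pass in edgeR's test (log2 fold change -0.027, adjusted p 0.984). MAFG had 5.78, 7.58 and 14.2 CPM in shUSP39 against 3.82 to 5.67 CPM in pGIPZ-NC. Its log2 fold change of 0.92 (adjusted p 0.0409) was 0.47 (adjusted p 0.0902) without shUSP39 replicate 3 and 0.41 (adjusted p 0.157) on its highest transcript. The adjusted p was 0.0852 in the DESeq2 Wald test and between 0.0586 and 0.166 without any 1 of the pGIPZ-NC libraries. BACH1, the repressor of HMOX1, was at 3.18 ± 0.559 and 2.97 ± 0.199 CPM and did not pass (adjusted p 0.793). CUL3, the ligase scaffold that KEAP1 recruits, had 21.1 ± 1.07 and 17.9 ± 1.20 CPM and an adjusted p of 0.0512, which was 0.0444 without pGIPZ-NC replicate 1 and 0.0421 with the replicate number as a block. SQSTM1 (p62), which can bind KEAP1 and is itself an NRF2 target, had a log2 fold change of 0.14 (adjusted p 0.0278). It did not pass without any 1 of the pGIPZ-NC libraries (0.0537 to 0.107) or without shUSP39 replicate 3 (0.305).

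Of 20 tested genes of glutathione synthesis and use, 6 were higher and 3 lower (median log2 fold change 0.08). SLC7A11, the cystine importer that supplies glutathione synthesis, rose 1.89-fold, to 69.8 ± 2.66 CPM (log2 fold change 0.92, adjusted p 1.30e-11). SLC7A11 is an NRF2 target and is also known as a target of ATF4. ABCC2, an export pump for glutathione conjugates, rose 4.08-fold, from 11.0 ± 1.41 to 44.8 ± 1.14 CPM. GLRX, a glutaredoxin of which 2 of 4 RefSeq transcripts are in the table, rose from 1.21 ± 0.0743 to 2.48 ± 0.480 CPM. Its adjusted p of 0.00642 was 0.0556 without shUSP39 replicate 2. GSTA4, a glutathione transferase for lipid aldehydes, fell from 47.4 ± 0.948 to 25.2 ± 0.892 CPM.

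Of 12 tested genes of the thioredoxin and peroxiredoxin cycle, 4 were higher and 2 lower (median 0.04). TXNRD2, the mitochondrial thioredoxin reductase, rose from 64.8 ± 0.877 to 132 ± 6.61 CPM, while its substrate TXN2, the mitochondrial thioredoxin, fell from 309.6 ± 9.40 to 265 ± 3.64 CPM. TXNRD2 had 2 rows against 6 RefSeq transcripts, so its values may not be those of the whole gene. TXNIP, an inhibitor of thioredoxin, rose from 5.94 ± 1.05 to 14.8 ± 0.353 CPM. PRDX1, an abundant cytosolic peroxiredoxin, was read at only 4.82 ± 0.529 CPM in pGIPZ-NC against 9.38 ± 0.621 CPM in shUSP39, with 2 of 4 RefSeq transcripts in the table, so its level here is not that of the whole gene.

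Among the enzymes that remove superoxide and peroxide, 1 of 5 was higher and 2 were lower. CAT (catalase) fell from 105 ± 5.65 to 87.9 ± 1.08 CPM, and CCS, the copper chaperone of SOD1, from 43.2 ± 1.97 to 35.0 ± 3.43 CPM. SOD3, the extracellular superoxide dismutase, was low, with 2.34, 0.784 and 1.18 CPM in shUSP39 against 0.248 to 0.502 CPM in pGIPZ-NC. Its adjusted p of 0.00238 was 0.0670 without shUSP39 replicate 1. Of 6 genes of NADPH supply 1 was higher and 1 lower. TKT had a log2 fold change of 0.28 (adjusted p 0.0115, and 0.0737 without shUSP39 replicate 2) and TALDO1 of -0.16.

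In quinone and carbonyl detoxification, where NQO1 belongs by function, 2 of 10 tested genes were higher and 2 lower (median -0.24). CBR3, a carbonyl reductase, rose from 2.34 ± 0.716 to 7.47 ± 0.793 CPM, and OSGIN1, an oxidative stress-induced growth inhibitor, from 82.3 ± 1.24 to 122 ± 2.80 CPM. ESD fell from 183 ± 7.62 to 139 ± 4.70 CPM and ADH5, which acts on formaldehyde bound to glutathione, from 324 ± 11.3 to 258 ± 6.87 CPM. The NRF2 targets AKR1B10, AKR1C2 and AKR1C3 were under the filter on low counts, and AKR1C1, at 0.815 to 2.46 CPM, did not pass (adjusted p 0.932).

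In heme and iron handling, the neighbourhood of HMOX1, 5 of 11 tested genes were higher and 1 lower (median 0.11). HMOX2, the constitutive heme oxygenase, was at 5.80 ± 0.685 CPM in pGIPZ-NC against 5.80 ± 0.897 CPM in shUSP39 and did not pass (adjusted p 0.9999), with 6 of 9 RefSeq transcripts in the table. BLVRB, biliverdin reductase B, rose from 147 ± 2.57 to 170.5 ± 11.7 CPM. BLVRA, biliverdin reductase A, was low, at 0.690 ± 0.476 CPM in pGIPZ-NC against 0.527 ± 0.308 CPM in shUSP39. BLVRA did not pass in edgeR's test (adjusted p 0.667). FTL, the light chain of ferritin, which stores the released iron, rose from 2808 ± 55.1 to 3134 ± 22.2 CPM (log2 fold change 0.16). SLC40A1, the iron exporter ferroportin, rose from 3.33 ± 0.388 to 5.58 ± 1.64 CPM, although it did not pass without shUSP39 replicate 2 (adjusted p 0.118). CPOX, an enzyme of heme synthesis, rose from 128 ± 2.16 to 148 ± 7.03 CPM. ABCB6, a porphyrin transporter, fell from 91.4 ± 6.39 to 80.2 ± 1.32 CPM, and its adjusted p of 0.0122 was 0.0936 without pGIPZ-NC replicate 3, 0.0545 without shUSP39 replicate 2 and 0.0591 under upper-quartile scaling.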

How the data were processed

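RNA-seq counts of 6 A2780 libraries were analysed, with groups and replicate numbers from the sample labels. The authors deposited 1 table of raw read counts per RefSeq transcript. HISAT2, Cufflinks and the build hg19 are named in the submitters' processing notes, and the counter, the annotation version and the use of strand are not given in the sources used here. How reads shared between transcripts were counted is also not given, so levels of genes with several transcripts may be too low. The authors' deposited table also holds group means, fold changes, p-values and q-values, which were not used.

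Counts were summed per gene symbol (46 symbols in the form of a date were restored by accession). After filterByExpr and TMM scaling, genes were tested with edgeR 4.0.16 (robust quasi-likelihood, group as the only term, Benjamini-Hochberg over all tested genes) in R 4.3.3. Standard errors are the absolute log2 fold change over the square root of F. Transcripts were fitted alike, with diffSpliceDGE for usage. Genes were matched with GENCODE release 44 on GRCh37 for positions and lengths. DESeq2 1.42.0 and limma 3.58.1 were alternatives. The fits were tested on simulated data with the same spread for all genes. In the gene fit, 90.5% of 200 genes changed 1.4-fold were recovered, and 100% of 200 changed 2-fold. Smaller changes, and changes in genes with low counts, were not simulated in it, so it does not cover most members.

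Members and lists were chosen with earlier results of these data known. Named were all members, up to 4 genes per list with the largest change among those that passed, and BACH1, MAFG, CUL3, SQSTM1, SLC7A11, PRDX1, FTL and HMOX2. A further gene named by this rule is not reported here. AKR1B10, AKR1C1, AKR1C2, AKR1C3, BLVRA and MAFF were named after their values were seen. AKR1C genes are near-identical copies and thus uncertain, as are genes with processed copies such as FTL.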

Additional observations from a re-analysis of the deposited data

How the results depend on the processing

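The 8 members kept their directions under every alternative in which they were tested, and the same 6 passed in each other scaling (upper-quartile, DESeq2 size factors, total counts alone), both other filters, limma-voom, DESeq2's Wald test, the fit with the replicate block and that on each gene's highest transcript. For members with 1 row, the fit on the highest transcript used the same counts as the gene sum. TXNRD1 was not tested where every library had to hold at least 10 counts. Over all genes, 3380 to 3981 passed in the alternatives above. From 4 to 7 members passed when 1 library was left out, against 3095 to 3571 of all genes. In the same fits, from 0 to 1 members passed with a change beyond 2-fold as well (TXNRD1 without pGIPZ-NC replicate 1). Without shUSP39 replicates 2 and 3, an alternative chosen after seeing the data, 2 members passed (HMOX1 and TXN) and 2244 of all genes against 3598, with fewer samples and the lone shUSP39 library assumed to vary like the pGIPZ-NC libraries. With the replicate number as a block 6 members and 3981 of all genes passed. The deviations of same-numbered libraries from their group means correlated at 0.069, 0.0048 and 0.022 for replicates 1, 2 and 3. The pGIPZ-NC library correlated best with the shUSP39 library of its own number in replicates 1 and 3, but not in 2. The labels do not say whether same-numbered libraries shared a batch, and this was not tested. HMOX2 changed sign under upper-quartile scaling (0.045), total counts alone (0.026), the filter of at least 10 counts per library (0.0037), without pGIPZ-NC replicate 1 (0.0995), without shUSP39 replicate 3 (0.11) and without shUSP39 replicates 2 and 3 (0.20), and BACH1 without pGIPZ-NC replicate 3 (0.050). With 1 library left out, HMOX2 ranged from -0.12 to 0.11 and BACH1 from -0.17 to 0.050, and neither passed in any of these fits. At 2 to 32 counts per library, the depth limits TXNRD1 most.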
